A study of Mus musculus with 28 samples.

Results

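Dazl, Khdc3, Crxos, Pramel6, Pramel7, Taf7l, Prss50 and Mael are 8 germ cell and oocyte genes that were followed in mouse embryonic stem cells while the cells left the naive state and were then given back the medium that maintains it. They are 8 of the 31053 genes in the deposited count files, and they were chosen by their levels in these libraries, as earlier results had shown them. Those levels in 2iL and along the withdrawal are therefore given as a description, without a test. The question put to the data was whether the return of 2iL restores them.

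The cells were of the E14 line, an established feeder-free line of embryonic stem cells derived from the mouse blastocyst, and all groups were grown in serum-free N2B27 medium on gelatin. 2iL is the addition of CHIR99021, an inhibitor of GSK3, PD0325901, an inhibitor of MEK, and the cytokine LIF. There were 7 groups of 4 libraries, 28 in all: cells in 2iL, cells 24, 48, 96 and 120 h after its withdrawal, and cells withdrawn for 48 or 96 h and then returned to 2iL for 24 h, called 48 h + 2iL and 96 h + 2iL. The 4 libraries of a group come from experiments numbered 1 to 4, and every experiment covers all 7 groups. The labels do not say whether the experiments were separate thaws or clones, so p-values measure the spread between these libraries only. The 96 h + 2iL cells were harvested at the same total time as the 120 h cells, whereas no library analysed here matches the 48 h + 2iL cells in total time.

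Genes that serve meiosis, the piRNA pathway or the egg are silent in most body cells. Many of them carry CpG-rich promoters that are kept closed by DNA methylation, which DNMT3A and DNMT3B set with the help of DNMT3L, and by the PRC1.6 complex, which binds DNA through E2F6 and through the MGA and MAX pair. Embryonic stem cells in 2iL are known for low DNA methylation and for transcribing some of these genes. Of the listed genes, Dazl encodes an RNA-binding protein that germ cells need, Khdc3 a KH domain protein of the maternal complex of the oocyte, and Crxos a homeobox protein of early embryos. Pramel6 and Pramel7 belong to the PRAME family of leucine-rich repeat proteins, Taf7l encodes a testis form of the TFIID subunit TAF7, Prss50 a testis serine protease and Mael a protein of the piRNA pathway.

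All 8 are protein-coding in GENCODE M21 on GRCm38 (mm10). Dazl lies at chr17:50279395-50293636 on the minus strand, Khdc3 at chr9:73101836-73104438 on the plus strand and Crxos at chr7:15882617-15904020 on the plus strand. Pramel6 lies at chr2:87506565-87510872 on the plus strand and Pramel7 at chr2:87489087-87497093 on the minus strand. Taf7l lies at chrX:134460118-134476490 on the minus strand, Prss50 at chr9:110857967-110864629 on the plus strand and Mael at chr1:166201201-166238747 on the minus strand. The only annotated overlap was that of Khdc3 with Gm20509 on the same strand, which had 0 counts. The longest open reading frames of Pramel6 and Pramel7, 1458 and 1440 bases, were 63.4% identical, and their transcripts shared no run longer than 15 bases.

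The promoters of the listed genes fall into a CpG-rich and a CpG-poor kind. The 250 bases before the RefSeq start (GRCm38.p6) are shown for 6 of these genes. They run 5′ to 3′ on the strand of the gene, with each CpG pair in capitals. Their windows are chr17:50293621-50293870, minus strand, for Dazl; chrX:134476491-134476740, minus strand, for Taf7l; chr1:166238745-166238994, minus strand, for Mael; chr9:110857717-110857966, plus strand, for Prss50. Those of the CpG-poor examples are chr7:15882367-15882616, plus strand, for Crxos and chr2:87506315-87506564, plus strand, for Pramel6.
Dazl: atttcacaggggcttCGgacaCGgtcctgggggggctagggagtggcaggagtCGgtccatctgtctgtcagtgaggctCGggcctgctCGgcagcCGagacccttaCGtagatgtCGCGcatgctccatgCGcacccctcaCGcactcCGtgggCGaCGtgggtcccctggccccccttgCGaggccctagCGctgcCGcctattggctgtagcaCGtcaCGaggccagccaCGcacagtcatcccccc
Taf7l: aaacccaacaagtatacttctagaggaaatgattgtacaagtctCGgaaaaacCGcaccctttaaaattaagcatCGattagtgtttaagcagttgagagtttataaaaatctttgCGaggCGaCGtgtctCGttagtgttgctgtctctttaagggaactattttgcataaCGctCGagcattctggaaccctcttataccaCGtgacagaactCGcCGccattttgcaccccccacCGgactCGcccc
Mael: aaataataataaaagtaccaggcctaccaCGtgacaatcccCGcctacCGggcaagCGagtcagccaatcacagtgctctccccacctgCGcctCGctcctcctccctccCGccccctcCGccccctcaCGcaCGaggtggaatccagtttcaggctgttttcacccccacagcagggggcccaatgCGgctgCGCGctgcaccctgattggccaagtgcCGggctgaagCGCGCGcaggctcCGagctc
Prss50: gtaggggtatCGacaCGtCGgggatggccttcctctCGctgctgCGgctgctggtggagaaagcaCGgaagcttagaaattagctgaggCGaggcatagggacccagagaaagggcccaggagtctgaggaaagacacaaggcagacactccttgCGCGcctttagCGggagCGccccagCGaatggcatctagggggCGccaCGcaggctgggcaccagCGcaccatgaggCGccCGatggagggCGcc
Crxos: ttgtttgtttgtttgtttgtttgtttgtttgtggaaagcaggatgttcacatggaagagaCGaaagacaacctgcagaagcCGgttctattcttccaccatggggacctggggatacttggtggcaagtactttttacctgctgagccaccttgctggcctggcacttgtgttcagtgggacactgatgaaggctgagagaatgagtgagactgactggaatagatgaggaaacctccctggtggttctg
Pramel6: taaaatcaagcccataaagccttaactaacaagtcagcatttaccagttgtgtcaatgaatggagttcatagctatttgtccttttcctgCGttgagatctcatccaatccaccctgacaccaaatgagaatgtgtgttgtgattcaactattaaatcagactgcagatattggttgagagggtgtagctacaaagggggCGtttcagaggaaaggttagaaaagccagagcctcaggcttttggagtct

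Dazl had 20 CpG pairs in this window, Mael 18, Prss50 17 or 18 at its 2 RefSeq starts and Taf7l 14. Pramel6 had 2, Pramel7 1, Khdc3 0, and Crxos 2, 3 and 0 at its 3 starts. The median over all 32851 RefSeq windows was 6. Over the list of meiosis and germ cell genes it was 12.5 (46 windows), over the piRNA genes 16.5 (24 windows) and over the oocyte and maternal effect genes 3 (26 windows). The 3′ counts do not tell which start was used. In the levels given below, CpG-rich Dazl was highest in 2iL, as the CpG-poor genes were. CpG-rich Taf7l, Prss50 and Mael were not. Whether the kind of promoter bears on the levels was not tested.

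**Figure D1:**
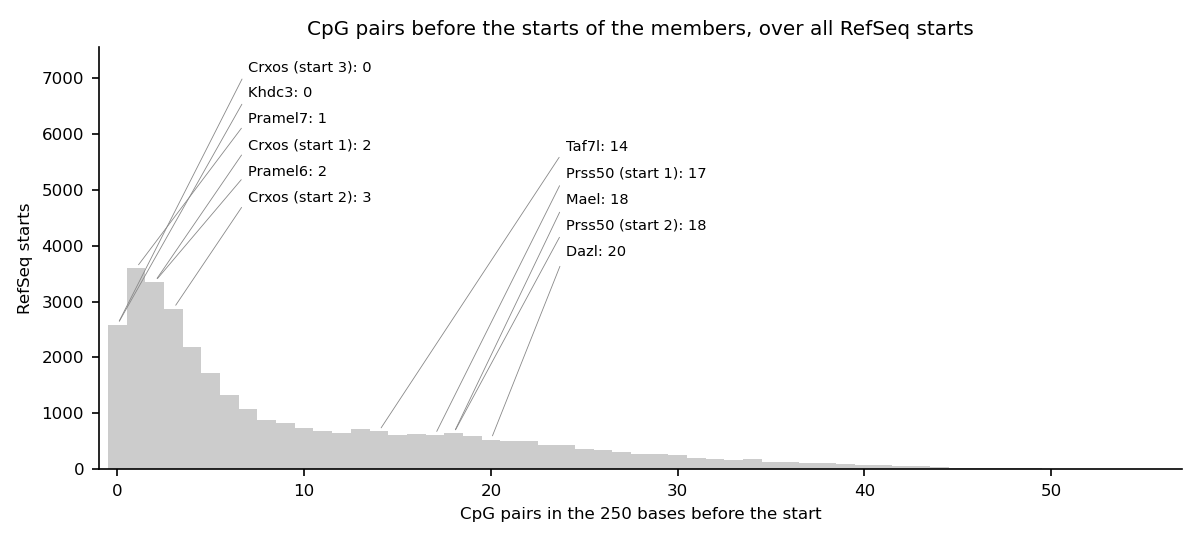
Number of RefSeq starts (vertical axis) by the number of CpG pairs in the 250 bases before them (horizontal axis), with each start of the 8 listed genes marked by name and count. Dazl, Mael, Prss50 and Taf7l lie at 14 to 20 pairs, and Khdc3, Crxos, Pramel6 and Pramel7 at 0 to 3, against a median of 6.

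The windows were searched on both strands for CACGTG, the E-box bound by MGA and MAX, GGCGGGA, a site type of E2F6, TTCCNGGAA for STAT3 and TCAAGGTCA for ESRRB. CACGTG occurred in Taf7l, beginning 49 bases before the start, and in Mael, beginning 223 bases before it. Mael also had GGCGGGA on the opposite strand, beginning 143 bases before the start. TTCCNGGAA occurred before the third start of Crxos only, beginning 246 bases before it. The shares of all RefSeq windows with a match were 6.02% for CACGTG, 9.75% for GGCGGGA, 0.913% for TTCCNGGAA and 0.387% for TCAAGGTCA. These are matches of letters and do not show that a factor was bound.

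The libraries held 1554830 to 2828694 counts assigned to genes, so that 1 count was worth 0.354 to 0.643 CPM, the unit in which all libraries are scaled to the same total. Levels are CPM after TMM scaling, a correction for the make-up of each library, and are given as mean ± SD over 4 libraries. Multi-mapped alignments, 52.3% to 60.1% of the reads listed, were not counted by the authors. The summed level of 12 naive pluripotency markers was 2376 to 2664 CPM in 2iL, 367 to 575 at 48 h, 1601 to 1975 at 48 h + 2iL, 88.1 to 249 at 96 h and 112 to 704 at 96 h + 2iL. The 96 h + 2iL library of experiment 3 stood apart at 112 CPM, with the highest sum of 7 neural progenitor markers (796 CPM, against 162 to 462 in the other 96 h + 2iL libraries). Of 13 markers of gonadal somatic cells, whose sum was 8.16 to 105 CPM over the libraries, Amh, Cyp17a1, Fshr and Hsd3b1 had 0 counts in every group and 2 passed the filter on low counts. One of these, Sox9, which neural progenitors also express, had 4.05 ± 0.748 CPM in 2iL, 56.1 ± 30.9 at 96 h, 47.3 ± 15.2 at 120 h and 10.5 ± 6.15 at 96 h + 2iL, and its part in the results was not tested. The 14 markers of two-cell-like cells summed to at most 24.4 CPM in any library. Several of them, such as the Zscan4 and Usp17l genes, have close copies, so reads from them may be multi-mapped and uncounted, and the low sum does not show that such cells were absent. In bulk samples fewer expressing cells and less RNA per cell cannot be told apart.

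Dazl, Khdc3, Crxos and Pramel6 were highest in 2iL, and so was Pramel7 at trace level. Taf7l, Prss50 and Mael were not: they were low in 2iL and highest 24 or 48 h after its withdrawal, which goes against calling them genes of naive cells. Compared with 2iL, the libraries of 3 of the 8 genes did not overlap at 24 h and those of all 8 did not at 48 h, where 16.4% and 28% of all tested genes had libraries that did not overlap; since the genes were chosen by these levels, nothing is read from the counts.

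**Figure D2:**
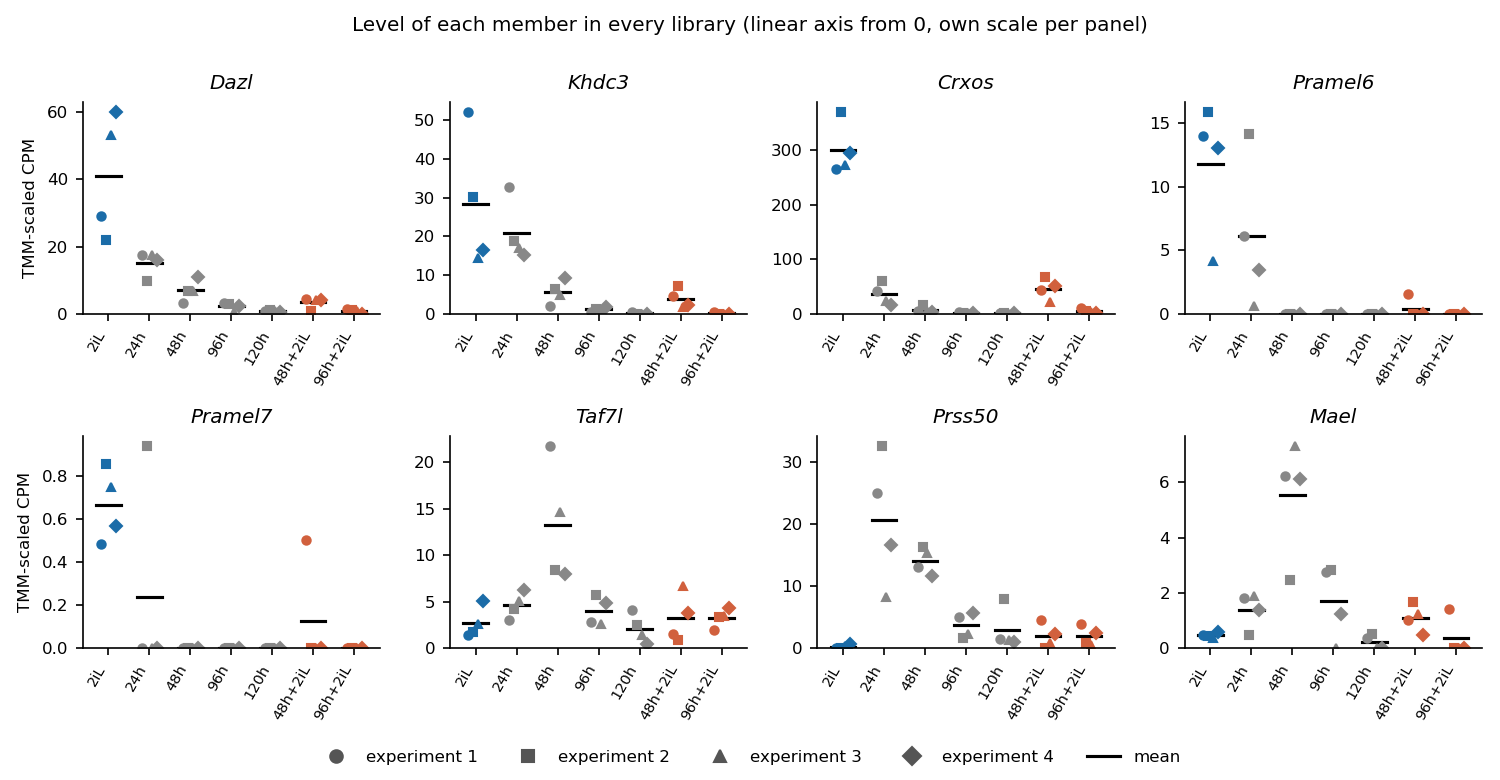
TMM-scaled CPM (vertical axis, linear from 0, own scale per panel) of the 8 listed genes in the 7 groups, 1 symbol per experiment and a bar at the mean. Crxos has a mean of 300.1 in 2iL, 7.66 at 48 h and 45.8 at 48 h + 2iL, whereas Taf7l and Mael peak at 48 h and Prss50 at 24 h.

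Crxos, the homeobox gene, had 264, 370.1, 272 and 294 CPM in 2iL in experiments 1 to 4. The 24 h libraries had 41.3, 60.8, 23.9 and 16.6 CPM, and the 48 h libraries 4.67, 16.8, 5.49 and 3.68 CPM. The 2iL libraries did not overlap with those of any other group, and the 48 h library of experiment 2 was the only one of its group above 5.49 CPM. The means were 300.1 ± 48.3 in 2iL, 35.7 ± 19.7 at 24 h, 7.66 ± 6.13 at 48 h, 1.93 ± 0.64 at 96 h and 1.17 ± 0.81 at 120 h.

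Dazl, the germ cell RNA-binding gene, had 29.0, 21.9, 53.4 and 60.2 CPM in 2iL. It had 17.6, 9.90, 17.6 and 15.9 CPM at 24 h, and 3.11, 6.91, 6.71 and 11 CPM at 48 h. The 2iL and 24 h libraries did not overlap, whereas each later step down overlapped with the one before it. The means were 41.1 ± 18.5 in 2iL, 15.3 ± 3.67 at 24 h, 6.94 ± 3.24 at 48 h, 2.23 ± 1.24 at 96 h and 0.772 ± 0.24 at 120 h.

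Khdc3, the oocyte KH domain gene, kept its level longer, with 52.2, 30.1, 14.3 and 16.5 CPM in 2iL and 32.8, 18.9, 17 and 15.2 CPM at 24 h. These groups overlapped throughout. At 48 h it had 2.07, 6.42, 4.88 and 9.20 CPM, below every 24 h library. The mean was 28.2 ± 17.4 CPM in 2iL, 21 ± 8.04 at 24 h, 5.64 ± 2.98 at 48 h and 1.15 ± 0.49 at 96 h, and 1 count remained in the 120 h libraries together against 245 in 2iL, a ratio of 254 (95% interval 45.2 to 10082, counting error only).

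Pramel6 had 14, 15.9, 4.13 and 13.1 CPM in 2iL, 100 counts in all, and 6.08, 14.1, 0.630 and 3.46 CPM at 24 h. It had 0 counts in the 48, 96 and 120 h libraries. With 3 counts per group as the floor, its level was at least 28.3-fold lower at 48 h than in 2iL, at least 36.9-fold lower at 96 h and at least 35.9-fold lower at 120 h. Pramel7, its PRAME relative, had 6 counts in 2iL, spread over all 4 libraries, 2 counts at 24 h in experiment 2, and 0 at 48, 96 and 120 h.

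Taf7l, the TFIID variant, had 1.45, 1.72, 2.63 and 5.11 CPM in 2iL and 21.8, 8.39, 14.7 and 7.97 CPM at 48 h. Every 48 h library was above every library of every other group. The mean was 2.73 ± 1.67 in 2iL, 4.64 ± 1.34 at 24 h, 13.2 ± 6.48 at 48 h, 3.97 ± 1.52 at 96 h and 2.1 ± 1.58 at 120 h. TAF7, the general form of the same subunit, had a Taf7 level of 271 ± 29.2 CPM in 2iL and 219 ± 17.5 at 48 h.

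Prss50, the testis protease, had 2 counts in the 2iL libraries together and 24.9, 32.5, 8.19 and 16.6 CPM at 24 h. The 147 counts at 24 h correspond to a ratio of 95.3 over 2iL (95% interval 25.9 to 795, counting error only). At 48 h it had 13, 16.3, 15.3 and 11.7 CPM, overlapping with 24 h, and at 96 h 3.63 ± 2.03 CPM, below every 48 h library. Mael, of the piRNA pathway, had 1 count in each 2iL library and 12, 5, 12 and 10 counts at 48 h (6.22, 2.47, 7.33 and 6.13 CPM), with 1.39 ± 0.65 CPM at 24 h, 1.70 ± 1.35 at 96 h and 0.217 ± 0.26 at 120 h. Mael and Pramel7 did not pass the filter on low counts, and the other 6 of the 8 did.

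The return of 2iL was tested with edgeR's quasi-likelihood test, with p-values adjusted over all 11080 genes that passed the filter. The comparisons with withdrawn cells share the withdrawn libraries, and those with 2iL cells the 2iL libraries, with the levels by which the genes were chosen. The comparisons of the 8 genes with 2iL are therefore given as a description. Their p-values are left out, except those showing that a call of Prss50 depended on single libraries. The falls of genes highest at 48 h, and the rise of Crxos from its low 48 h level, are no independent evidence of their direction. The comparison of 96 h + 2iL with 48 h + 2iL shares neither, but of the tested genes only Crxos passed the filter on these groups alone.

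Cells given 2iL for 24 h after 48 h of withdrawal held more Crxos and less Taf7l and Prss50 than cells at 48 h. These are 3 of the 6 tested genes, 1 higher and 2 lower. Of all genes 14.9% were called in this comparison, 7.24% higher and 7.67% lower. Dazl, Khdc3 and Pramel6 were not called. The libraries of 4 of the 8 listed genes did not overlap between the groups, Crxos, Taf7l, Prss50 and Mael, against 21.1% of all tested genes.

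Crxos had 43.0, 66.4, 22.4 and 51.2 CPM at 48 h + 2iL, each above every 48 h library. It rose by 2.52 ± 0.41 on the log2 scale (edgeR adjusted p = 3.64e-05), in 4 of 4 experiments. The rise stopped far below the 2iL level: in experiments 1 to 4 it reached 16.3%, 18%, 8.24% and 17.4% of that experiment's 2iL value, a mean of 15% ± 4.55, from 2.39% ± 1.46 at 48 h. The 48 h + 2iL mean of 45.8 ± 18.3 CPM overlapped with the 24 h libraries. The summed naive markers were also higher in these libraries than at 48 h, and the 48 h + 2iL library lowest in Crxos, that of experiment 3, was also the lowest of its group in that sum (1601 CPM). Their part in the result was not tested.

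Dazl had 4.55, 0.841, 4.16 and 4.19 CPM at 48 h + 2iL, lower than at 48 h in 3 of 4 experiments, with a log2 difference of -1.0 ± 0.47 (edgeR adjusted p = 0.165). Khdc3 had 4.55, 7.15, 1.66 and 2.33 CPM, a difference of -0.50 ± 0.51 on the log2 scale (edgeR adjusted p = 0.583), with 2 experiments higher and 2 lower. Neither showed a rise over 48 h, and the groups overlapped for both. With further withdrawal both genes had lower means, 2.23 CPM for Dazl and 1.15 for Khdc3 at 96 h. Every 48 h + 2iL library of Khdc3 was above every 96 h library, at the nearest by 1.66 against 1.62 CPM. No library analysed here was withdrawn for the same total time, so for both genes the return of 2iL and the added 24 h cannot be told apart. Pramel6 had 3 counts in experiment 1 and 0 in the other libraries, and Pramel7 1 count in experiment 1, so that both groups were at or under the floor of 3 counts and no fold is given.

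Taf7l had 1.52, 0.841, 6.65 and 3.72 CPM at 48 h + 2iL. It fell by 2.02 ± 0.52 on the log2 scale (edgeR adjusted p = 0.00622), in 4 of 4 experiments and with no overlap. Prss50 had 4.55, 0, 0.831 and 2.33 CPM and fell by 2.89 ± 0.65 (edgeR adjusted p = 0.00174), also in 4 of 4 experiments and with no overlap. Mael had 2, 4, 3 and 1 counts, against 12, 5, 12 and 10 at 48 h, and was lower in 4 of 4 experiments. Its exact two-sided permutation p was 0.0286, the smallest that 4 against 4 can give, and 0.143 after adjustment over 10 such comparisons of Mael and Pramel7. All 3 genes also had lower means at 96 h of withdrawal than at 48 h, and the return of 2iL and the added 24 h cannot be told apart here, since no library analysed here was withdrawn for the same total time.

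**Figure D3:**
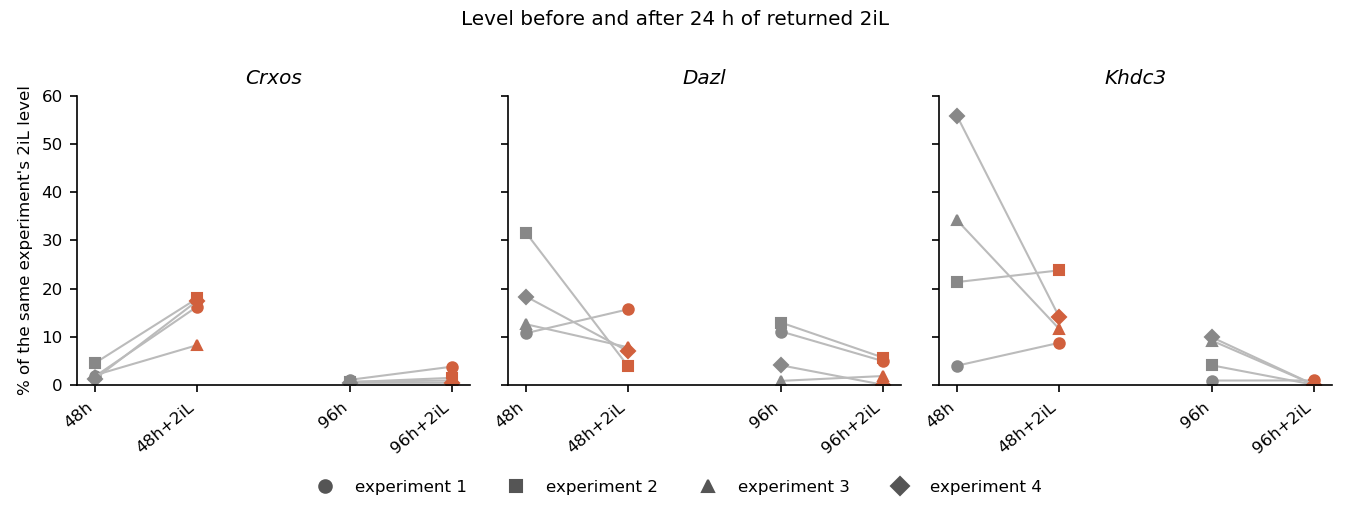
Level of Crxos, Dazl and Khdc3 as a percentage of the 2iL level of the same experiment (vertical axis), before (grey) and after (orange) 24 h of returned 2iL, with a line joining the libraries of 1 experiment. Crxos climbs in every experiment after 48 h, to 8.24% to 18%, whereas Dazl and Khdc3 lie higher after the return in some experiments and lower in others.

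After 96 h of withdrawal the listed genes were too low for a count of calls to say much. All 6 had passed the filter through other groups: with only the 96 h and 96 h + 2iL libraries in the fit, 0 of the 8 passed it. In the model of all groups edgeR and DESeq2 called 0 of the 6, against 9.24% of all genes by edgeR, and 1 had an unadjusted edgeR p under 0.05. Crxos had 9.97, 5.36, 2.43 and 1.24 CPM at 96 h + 2iL and 2.75, 2.02, 1.74 and 1.22 CPM at 96 h. It was higher in 4 of 4 experiments, in experiment 4 by 1.24 against 1.22 CPM, and the groups overlapped. The log2 difference was 1.34 ± 0.67 (edgeR adjusted p = 0.226). With no filter on low counts, which changes the number of genes and the estimated spread, the same difference was called at 1.35 (edgeR adjusted p = 0.0122). Over the alternatives tried the adjusted p ran from 0.0122 to 0.603.

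The order of Crxos over the 96 h + 2iL libraries was only in part that of the naive markers, whose sums were 704, 660, 112 and 346 CPM in experiments 1 to 4. Without experiment 3 of the 96 h + 2iL group, the library that stood apart, the Crxos difference was 1.57 on the log2 scale (edgeR adjusted p = 0.183). Without experiment 1 it was 0.75 (edgeR adjusted p = 0.603).

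Dazl had 1.42, 1.24, 0.973 and 0 CPM at 96 h + 2iL, a log2 difference from 96 h of -1.16 ± 0.67 (edgeR adjusted p = 0.315). Khdc3 had 1 count in 96 h + 2iL against 11 at 96 h, a ratio of 9.58 lower (95% interval 1.39 to 412, counting error only; edgeR adjusted p = 0.127). Taf7l had 3.24 ± 1.01 CPM and a log2 difference of -0.32 ± 0.56 (edgeR adjusted p = 0.795), and Prss50 1.90 ± 1.54 CPM and -0.94 ± 0.71 (edgeR adjusted p = 0.464). Mael had 3 counts, all in experiment 1, against 16 at 96 h (exact permutation p = 0.257, adjusted 0.429). Without that library Mael passed the filter and was called lower, with a log2 difference of -4.87 (edgeR adjusted p = 0.0257, over its 8 such fits 0.0257 to 0.393). Pramel6 and Pramel7 had 0 counts in both groups.

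The same holds against the time-matched 120 h cells, where 0 of the 8 passed the filter with only those groups in the fit. Pramel6 had 0 counts in both groups and Khdc3 1 in each. In the model of all groups edgeR and DESeq2 called 0 of the 6, against 2.63% of all genes by edgeR, and 1 had an unadjusted edgeR p under 0.05. Crxos was at 4.75 ± 3.89 CPM in 96 h + 2iL and 1.17 ± 0.81 at 120 h, a log2 difference of 1.99 ± 0.74 (edgeR adjusted p = 0.189, over the alternatives 0.000307 to 0.560). The value of 0.000307 is that without the filter on low counts.

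Set against cells that never left 2iL, the 48 h + 2iL libraries of Dazl, Khdc3, Crxos and Pramel6 all lay below every 2iL library. These are the 4 of the 8 whose libraries did not overlap, against 16.8% of all tested genes, and the 4 of 6 called, all lower, against 11.6% of all genes called and 5.49% lower. Since the genes were chosen by their 2iL levels, nothing is read from these counts. Dazl differed by -3.57 ± 0.43 on the log2 scale and stood at 8.57% ± 5.04 of its 2iL level. Crxos differed by -2.71 ± 0.32 and Khdc3 by -2.83 ± 0.46, the latter at 14.6% ± 6.53 of its 2iL level. Pramel6 had 3 counts against 100, a ratio of 33.7 (95% interval 11.2 to 166, counting error only).

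Taf7l and Prss50 were near or above their low 2iL levels at 48 h + 2iL. Taf7l differed by 0.27 ± 0.58 on the log2 scale and overlapped with 2iL. Prss50 had 16 counts against 2, a ratio of 7.92 (95% interval 1.86 to 71.0, counting error only), and was above the 2iL library in 3 of 4 experiments. Mael had 10 counts against 4, and Pramel7 1 against 6.

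**Figure D4:**
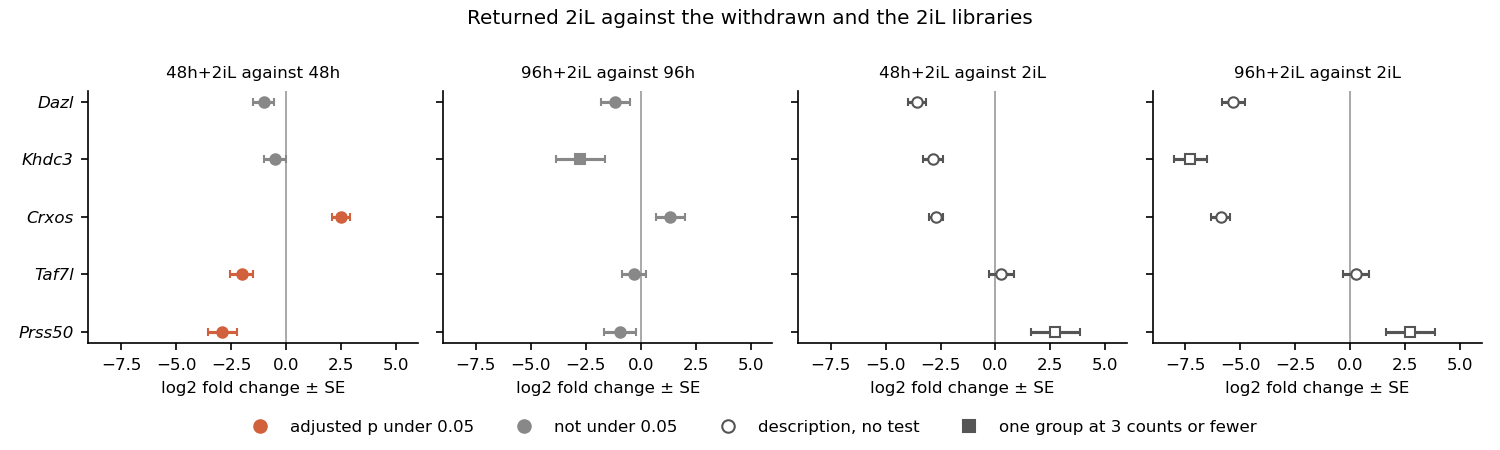
Log2 fold change ± SE (horizontal axis) of 5 of the listed genes in 4 comparisons of returned cells, orange where the edgeR adjusted p was under 0.05, open in the comparisons with 2iL, which are a description with no test, and square where a group had 3 counts or fewer. Crxos lies at 2.52 over 48 h yet at -2.71 against 2iL, and Dazl and Khdc3 lie below 0 in all 4 panels. Pramel6 is left out because most groups had 0 counts.

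At 96 h + 2iL the libraries of Dazl, Khdc3, Crxos, Pramel6 and Pramel7 did not overlap with those of 2iL, 5 of the 8, against 35.8% of all tested genes. Calls against 2iL numbered 5 of 6, 4 lower and 1 higher, where 41.0% of all genes were called, 19.5% lower and 21.4% higher, and again nothing is read from them. Dazl differed by -5.32 ± 0.52 on the log2 scale and Crxos by -5.91 ± 0.42. Crxos was at 1.63% ± 1.49 of its 2iL level and Dazl at 3.10% ± 2.65. Khdc3 had 1 count against 245, a ratio of 228 (95% interval 40.5 to 9027, counting error only), and Pramel6, with 0 counts, was at least 32.2-fold lower. Prss50 had 15 counts against 2, a ratio of 8.07 (95% interval 1.88 to 72.7, counting error only), and overlapped with 2iL. It had passed the filter through the 24 and 48 h groups, not through either group compared, and its call was lost without any 1 of 5 libraries, experiment 1, 2 or 3 of 2iL and experiment 1 or 4 of 96 h + 2iL (edgeR adjusted p = 0.106, 0.115, 0.0666, 0.187 and 0.0875). Taf7l differed by 0.26 ± 0.59.

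The cells returned late held less of Crxos, Khdc3 and Dazl than those returned early. Between 96 h + 2iL and 48 h + 2iL these 3 of 6 were lower and none was higher, where 24.1% of all genes were called and 11.2% were lower. The libraries did not overlap for Crxos and Khdc3, 2 of the 8, against 26.1% of all tested genes. Crxos differed by -3.19 ± 0.43 on the log2 scale (edgeR adjusted p = 1.87e-06) and was lower in 4 of 4 experiments. With only these groups in the fit it was the 1 gene of the 8 that passed the filter, so Khdc3 and Dazl were tested because of their levels in other groups. All 3 genes also had lower means at 96 h than at 48 h, before 2iL was returned. Khdc3 had 1 count against 35, a ratio of 32.2 (95% interval 5.41 to 1308, counting error only; edgeR adjusted p = 0.000534). Dazl differed by -1.75 ± 0.63 (edgeR adjusted p = 0.0409) and was lower in 3 of 4 experiments and with overlap.

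The Dazl call was lost without any 1 of 6 libraries. Without experiment 1, 3 or 4 of 48 h + 2iL the edgeR adjusted p was 0.0994, 0.0903 and 0.0904, and without experiment 2, 3 or 4 of 96 h + 2iL it was 0.0581, 0.0869 and 0.108. Mael had 3 counts against 10 (exact permutation p = 0.114, adjusted 0.229), and was called lower without experiment 1 of the 96 h + 2iL group (edgeR adjusted p = 0.0308, over its 8 such fits 0.0308 to 0.521). Taf7l and Prss50 differed by -0.01 ± 0.55 and 0.01 ± 0.76 on the log2 scale (edgeR adjusted p = 0.996 for both).

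Whether the response to returned 2iL itself differed between 96 h and 48 h was tested as an interaction. None of the 6 was called, by edgeR or by DESeq2, against 0.921% of all genes by edgeR, and 1 had an unadjusted edgeR p under 0.05. Beside so small a share nothing is read from this count. Pramel6, with 0 counts at 48 h, 96 h and 96 h + 2iL, could not have been called, and no value is given for it. The difference of responses was -1.18 ± 0.86 on the log2 scale for Crxos (edgeR adjusted p = 0.666), 1.70 ± 0.77 for Taf7l (edgeR adjusted p = 0.384), 1.95 ± 1.00 for Prss50 (edgeR adjusted p = 0.482), -2.25 ± 1.23 for Khdc3 (edgeR adjusted p = 0.519) and -0.15 ± 0.70 for Dazl (edgeR adjusted p = 0.965). A rise of Crxos that passed the test after 48 h and not after 96 h is thus not shown to differ between the times.

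Further genes were taken from lists drawn up by function, with earlier results of these data known. Each list is described by counts and its median log2 fold change. Some lists include genes of the 8, such as Taf7l among the TFIID genes. Over all tested genes that median was -0.000457 for 48 h + 2iL against 48 h and 0.01 for 96 h + 2iL against 2iL. At 48 h + 2iL against 48 h, 5 of the 10 specifiers of primordial germ cells rose and 1 fell, with a median of 1.25, where 7.24% of all genes were higher and 7.67% lower. DESeq2 called 5 of the 10 in place of 6. Nanos3, a translational regulator of germ cells, rose from 0.282 ± 0.328 to 5.89 ± 3.14 CPM (edgeR adjusted p = 0.00286). Prdm14, which is also a naive pluripotency factor, rose from 0.153 ± 0.305 to 5.28 ± 2.27 CPM, and the receptor gene Kit from 4.51 ± 1.57 to 43.8 ± 17.6 CPM. At 48 h Nanos3 and Prdm14 were under 0.415 CPM, the worth of 3 counts over that group. The size of their rises is therefore uncertain. Tfap2c, an AP-2 transcription factor, reached 96.7 ± 14.4 CPM against 91.6 ± 37.5 in 2iL, and the maternal factor gene Dppa3 43.4 ± 18.6 against 57.2 ± 20. Of the 12 naive markers 9 rose and none fell, with a median of 2.05.

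**Figure D5:**
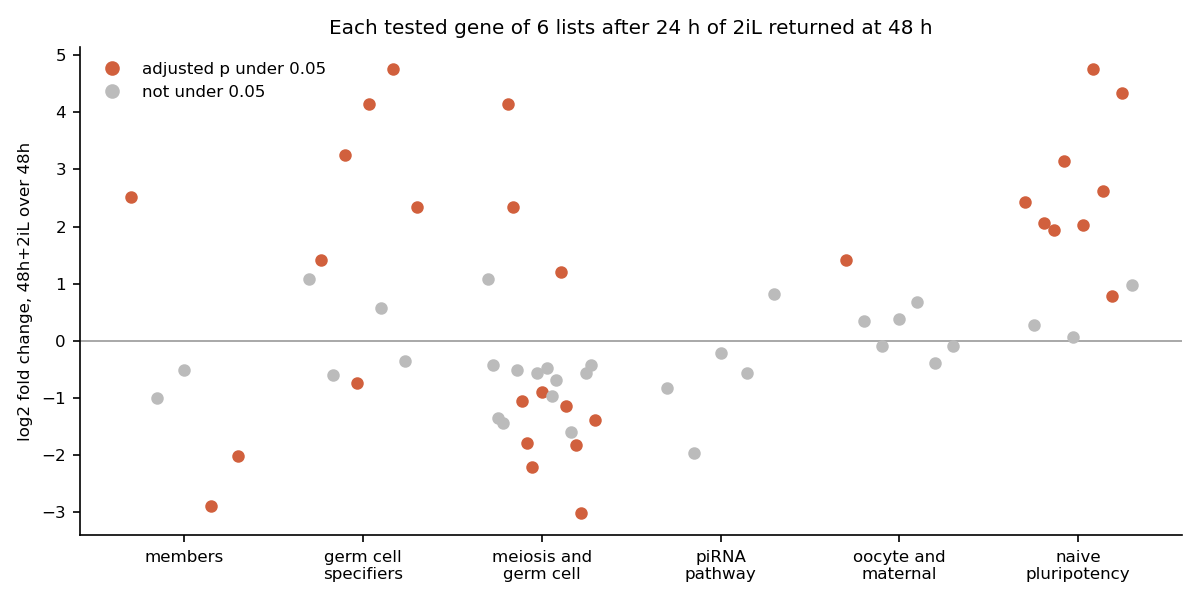
Log2 fold change of 48 h + 2iL over 48 h (vertical axis) for each tested gene of 6 lists (horizontal axis), orange where the edgeR adjusted p was under 0.05; genes of 2 lists appear in both, and Pramel6 is left out because its groups had 3 and 0 counts. The germ cell specifiers have 5 rises and 1 fall, the meiosis and germ cell list 3 rises and 8 falls, and the naive markers 9 rises.

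Of 49 meiosis and germ cell genes 23 passed the filter, of which 3 rose and 8 fell at 48 h + 2iL against 48 h, with a median of -0.89, beside the same 7.24% and 7.67% of all genes. For these falls too, the return of 2iL and the 24 h added to the total time cannot be told apart. Zcwpw1, a histone reader of meiosis, fell from 44.9 ± 11.8 to 17.1 ± 3.81 CPM (-1.38 ± 0.28 on the log2 scale, edgeR adjusted p = 0.000753). Like Taf7l and Mael it was highest at 48 h, with 12.7 ± 0.276 CPM in 2iL. Smc1b, a meiotic cohesin gene, fell from 18.9 ± 6.08 to 5.46 ± 1.81 CPM, Sohlh2, a germ cell transcription factor, from 9.12 ± 3.67 to 1.94 ± 0.587 and Tex19.1, of the germline defence against transposons, from 158 ± 18 to 72.1 ± 14.5. Also lower were Syce1 and 3 genes with near-identical copies, Rpl10l, Tuba3a and Tuba3b, whose counts are uncertain. The rises were those of Nanos3, of the meiotic cohesin gene Rec8 (2.34 ± 0.79 on the log2 scale, edgeR adjusted p = 0.0423) and of Tex15 (1.20 ± 0.39, edgeR adjusted p = 0.0329). At 96 h + 2iL against 2iL, 1 of the 23 was higher and 16 were lower, with a median of -2.04, where 21.4% of all genes were higher and 19.5% lower.

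Genes closest to single listed genes by function gave mixed values. Among the piRNA genes, the pathway of Mael, 5 of 18 passed the filter and none was called at 48 h + 2iL against 48 h, by edgeR or by DESeq2, with 2 at an unadjusted edgeR p under 0.05. Against 2iL, 1 of these 5 was lower at 48 h + 2iL and none was higher, where 5.49% of all genes were lower. The 1 was Fkbp6, at 9.01 ± 3.63 CPM against 34.5 ± 9.62 in 2iL (-1.92 ± 0.33 on the log2 scale, edgeR adjusted p = 0.000135). Of 31 oocyte and maternal effect genes 7 passed, of which Dppa3 rose by edgeR, at an adjusted p of 0.0493, and DESeq2 called none. Ooep, whose protein sits with that of Khdc3 in the maternal complex, had 18.5 ± 6.38 CPM in 2iL, 5.11 ± 1.68 at 48 h and 6.77 ± 4.37 at 48 h + 2iL (edgeR adjusted p = 0.703 against 48 h), and Dppa5a, of the same KH domain family, 57 ± 24.1, 14.8 ± 6.97 and 34.7 ± 17.1 (edgeR adjusted p = 0.11). In the PRAME family, 3 of 17 passed, and Pramef8 rose (1.09 ± 0.34 on the log2 scale, edgeR adjusted p = 0.0256) while Pramef12 differed by 0.15 ± 0.35 (edgeR adjusted p = 0.834). Of the 16 tested of 19 TFIID genes, Taf1 rose and Taf7l fell.

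The genes of the de novo DNA methyltransferases were lower at 48 h + 2iL than at 48 h. Here too the return of 2iL and the added 24 h cannot be told apart. Dnmt3a had 30.8 ± 2.39 CPM in 2iL, 459 ± 78.0 at 48 h and 90.4 ± 15.7 at 48 h + 2iL, a log2 difference of -2.34 ± 0.21 (edgeR adjusted p = 1.11e-09). Dnmt3b fell by 2.36 ± 0.32 (edgeR adjusted p = 2.48e-06) and Dnmt3l by 2.25 ± 0.39 (edgeR adjusted p = 8.07e-05) in the same comparison. Over the 26 listed repressors of germline genes, all of them tested, 1 rose and 5 fell, with a median of -0.14. Of all genes 7.24% were higher and 7.67% lower, and most of the 26 were not called. The DNA-binding genes of PRC1.6 were not among the calls: E2f6 differed by 0.10 ± 0.34 (edgeR adjusted p = 0.886) and Mga by -0.19 ± 0.14 (edgeR adjusted p = 0.416). DNA methylation was not measured here, and whether these levels bear on Dazl, Khdc3 or the other genes was not tested.

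The genes most alike in pattern were found by Pearson's r of log2(CPM + 1) over the 28 libraries, among genes with at least 5 CPM in some group. The values are descriptive, since libraries of 1 group share their condition. Crxos was most like Nfatc2ip (r = 0.965), Atp1b1 (0.948) and the naive factor gene Tbx3 (0.942). Dazl was most like Phf11d (0.926), Gstm2 (0.917) and Ppfibp2 (0.894), and Khdc3 most like Lrriq4 (0.927), Pfkp (0.927) and Acadm (0.926). Pramel6 was most like Ly6a (0.891), Zc3hav1 (0.873) and Wdr76 (0.872). Prss50 was most like Nfatc2 (0.847), Icosl (0.847) and Calca (0.818), while Taf7l reached at most 0.764, with Pbdc1. Among the listed genes, r was 0.877 between Dazl and Khdc3, 0.792 between Dazl and Crxos, 0.661 between Taf7l and Mael and -0.207 between Crxos and Prss50.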

How the data were processed

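Polyadenylated RNA of 28 libraries was measured by 3′ digital gene expression sequencing. Per the submitters' processing notes the tools were bcl2fastq, HTSeq and STAR (2.6.0a), and the build was mm10; their roles and settings are not given in the sources used here. Raw counts for 31053 genes were deposited, 1 file a library. The deposited series table holds CPM for 30386 genes; all 28 columns equalled the CPM of the matching counts within 1e-06. File names call the counts unique; whether this means position or molecular identifiers is not stated, so intervals and floors cover counting error only. Rows that name no gene were left out: multi-mapped reads (52.3% to 60.1%), reads on no gene (6.68% to 8.58%) and ambiguous reads (0.183% to 0.227%). The 8 genes and all lists were chosen with earlier results of these data known.

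Counts were filtered with filterByExpr (at least 10 counts, 15 in total), leaving 11080 genes, scaled by TMM and fitted in edgeR 4.0.16 (R 4.3.3) by quasi-likelihood, all 28 libraries in 1 model of 7 group means, checked on simulated counts. Tests were two-sided, with Benjamini-Hochberg adjustment over all tested genes in each of 7 comparisons and a threshold of 0.05. The SE is the absolute log2 fold change over the square root of F. Among the 8, genes with 1 to 3 counts in a group are given as a ratio of pooled counts with an exact 95% interval. Those with 0 are given as a bound at 3 counts over the group. The named genes are the 8, any gene of the lists, and for each gene that passed the filter the 3 of highest Pearson r, passing over Gm and Rik symbols and pseudogenes. Sequences are from RefSeq (GRCm38.p6); 8 of 8 symbols matched. Alternatives were library totals, DESeq2 size factors, DESeq2 1.42.0, no filter, only the groups compared, an experiment block and leaving out each library.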

Additional observations from a re-analysis of the deposited data

Results flagged for a closer look

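In each group of 4 libraries the highest or lowest value was compared with the rest (Dixon's test at 95%). Over 48 groups 9 libraries lay far from the others. In 6 of them 3 libraries were at 0 and 1 had 1 to 3 counts, which meets this criterion by construction, so the number cannot be set against the 1 in 20 that chance gives. The other 3 were in Dazl, Crxos and Prss50. Dazl at 48 h + 2iL had 0.841 CPM in experiment 2, against 4.16 to 4.55 in the others. Crxos at 48 h had 16.8 CPM in experiment 2, against 3.68 to 5.49 in the others. Prss50 at 120 h had 7.95 CPM in experiment 2, against 0.893 to 1.49 in the others.

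The 6 with 0 in the other libraries follow. Khdc3 had 0.373 CPM at 120 h and 0.475 CPM at 96 h + 2iL, both in experiment 1. Pramel6 had 1.52 CPM at 48 h + 2iL in experiment 1. Pramel7 had 0.943 CPM at 24 h in experiment 2 and 0.506 CPM at 48 h + 2iL in experiment 1. Mael had 1.42 CPM at 96 h + 2iL in experiment 1. The flagged values of Khdc3, Pramel6, Pramel7 and Mael in returned cells were all in experiment 1, and why was not tested. At 48 h + 2iL Khdc3 and Mael had counts in every experiment.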

How the results depend on the processing

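The rise of Crxos and the falls of Taf7l and Prss50 at 48 h + 2iL against 48 h were called in 14 of 14 alternatives each, with log2 values of 2.29 to 3.30, -2.67 to -1.65 and -3.70 to -2.45. Each of these fits draws on 48 h libraries by whose levels the genes were chosen. The 14 calls therefore speak to the processing only and are no independent evidence of the changes. With no filter on low counts, 1 gene was called at 96 h + 2iL against 96 h and 1 against 120 h, Crxos in both. With only the groups compared in the fit, 3 of the 8 passed the filter at 48 h + 2iL against 48 h, 3 at 48 h + 2iL and 3 at 96 h + 2iL against 2iL, 1 at 96 h + 2iL against 48 h + 2iL and 0 at 96 h + 2iL against 96 h or 120 h. All that passed were called, 3, 3, 3 and 1, and the last 2 comparisons then held no testable gene. Of the 4 that passed for the difference of responses 0 were called. Leaving out 1 library at a time gave 3 to 4 called members at 48 h + 2iL against 48 h, 0 to 1 at 96 h + 2iL against 96 h, 0 against 120 h, 4 to 5 for 48 h + 2iL and for 96 h + 2iL against 2iL, 2 to 4 for 96 h + 2iL against 48 h + 2iL and 0 for the difference of responses. The added call against 48 h (without experiment 2 of either group) and the single call against 96 h (without experiment 1 of 96 h + 2iL) were those of Mael, which passed the filter only in some of these fits.

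Direction turned only for values that were not called. For Taf7l at 96 h + 2iL against 48 h + 2iL the log2 value was 0.0419 with library totals, 0.00826 with DESeq2 size factors, 0.0113 with DESeq2 and 0.0385 with the replicate block, against -0.01, and for Prss50 -0.0172 with that block. Leave-one-out ranges that crossed 0 were -0.33 to 0.67 for Taf7l and -0.62 to 0.83 for Prss50 in that comparison, -1.49 to 1.6 for Khdc3 and -1.21 to 0.54 for Prss50 against 120 h, -0.39 to 0.69 for Taf7l at 48 h + 2iL against 2iL, and -0.49 to 0.15 for the Dazl difference of responses. In their deviations from the group means, libraries of the same experiment number correlated at -0.0417 to 0.419 (84 pairs, 22 over 0.1). The mean was 0.0862, against -0.0285 for different numbers, and 24 of 28 libraries correlated best with their own number. Libraries of an experiment thus shared some of their deviation. The main model leaves this out, and the block was fitted as an alternative. Over all genes it called 1941 in place of 1652 at 48 h + 2iL against 48 h. With the experiment as a replicate block the called members were 3, 0, 0, 4, 5, 3 and 0 in the 7 comparisons in the order of the text, as without the block. Depth limits Pramel7, Mael and the late levels of Pramel6 and Khdc3, which rest on 0 to a few counts.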
